A study of Mus musculus with 8 samples.

Results

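TRBV2, TRBV3, TRBV4 and TRBV5 are the beta-chain V segments that lie together near the upstream end of the mouse T-cell receptor (TCR) beta locus. Their chains were picked out by the V gene call deposited with each assembled beta chain. The call named a member segment in 433 of 2920 cells with a beta chain and in 268 of 1649 clonotypes with a beta chain. TRBV2 was called in 50 cells, TRBV3 in 254, TRBV5 in 129 and TRBV4 in none. A clonotype is a set of cells that Cell Ranger, the authors' assembly software, placed together because their rearranged chains match.

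The cells came from brains of C57BL/6 (B6) mice with traumatic brain injury (TBI, a controlled impact on the exposed cortex), and every group had the injury. YTBI_Isotype and YTBI_aCD49d mice were young, 13 to 15 weeks old at injury, and ATBI_Isotype and ATBI_aCD49d mice were aged, 80 to 82 weeks. The aCD49d groups received an antibody against CD49d, the alpha-4 integrin chain that lymphocytes use to enter tissue, and the Isotype groups its control antibody, 2 h after injury and then every 2 weeks until brains were taken at 2 months. Single-cell TCR sequencing gave 1 library per group, pooled from 2 mice. There were thus no replicates and no test, and intervals are exact 95% Clopper-Pearson limits that cover counting error only. Cells of a clone are not independent, which these limits do not include.

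Developing T cells build a beta chain by joining a D segment to a J segment and then a V segment to that pair. The mouse locus carries a pair of D-J-C clusters, TRBD1 with the TRBJ1 genes and TRBC1 followed by TRBD2 with the TRBJ2 genes and TRBC2, so a TRBJ1 gene can only be joined with TRBD1. The ends of the segments are trimmed and random bases are added, and the resulting stretch, the complementarity-determining region 3 (CDR3), contacts the presented peptide. V segments that lie far upstream are brought to the D-J pair by folding of the locus.

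In the RefSeq annotation of GRCm38 (mm10) all 4 segments were on the forward strand of chromosome 6, each with 2 exons. TRBV2 spanned chr6:41047556-41047995 and TRBV3 chr6:41048394-41048824, which begins 0.399 kb after TRBV2 ends. TRBV4 spanned chr6:41059443-41059886 and TRBV5 chr6:41062359-41062803. The 4 segments lay between 470.4 and 485.2 kb upstream of TRBD1, and TRBV1 ended 155.7 kb before TRBV2. Their second exons, which encode nearly all of the V domain, were 57.4% to 65.4% identical in pairs, so that the segments could be told apart over the V region.

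The germline ends are shown because they set where each CDR3 starts and because they decide how far the trimming of each segment can be read. Each sequence runs from the codon of the conserved cysteine that opens the CDR3 to the 39th base after the coding end, and capitals mark that codon and the 7-base heptamer at which the recombinase cuts.
TRBV2, chr6:41047979-41048034: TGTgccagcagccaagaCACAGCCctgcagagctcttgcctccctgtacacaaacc
TRBV3, chr6:41048808-41048863: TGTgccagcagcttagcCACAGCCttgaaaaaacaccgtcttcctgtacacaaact
TRBV4, chr6:41059870-41059925: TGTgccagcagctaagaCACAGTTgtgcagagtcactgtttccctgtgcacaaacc
TRBV5, chr6:41062787-41062842: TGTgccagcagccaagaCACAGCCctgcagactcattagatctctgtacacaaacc
Each segment brought 17 germline bases to the CDR3. Those of TRBV2 and TRBV5 were identical, so their CDR3 starts cannot be told apart without the rest of the V region. The heptamer was the same in TRBV2, TRBV3 and TRBV5, and TRBV4 had another. In the reading frame of the cysteine, the TRBV4 end held a TAA stop codon from its base 13, so a productive TRBV4 chain has to lose part of that end.

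No chain was called TRBV4, which allows this call a share of up to 0.103% of the 2920 cells (3 counts of the total). The Clopper-Pearson upper limit was 0.126%. At 3 counts the limits for the single libraries were 1.19% of the YTBI_Isotype cells, 0.534% of YTBI_aCD49d, 0.299% of ATBI_Isotype and 0.272% of ATBI_aCD49d. The call and the assembled sequence differed on this point. The deposited bases from framework 1 to framework 3 of all 164 chains called TRBV10, in 164 cells, were identical over 270 bases to the second exon of TRBV4 (chr6:41059600-41059869), and they differed from germline TRBV10 by 126 edits. RefSeq lists Trbv10, at chr6:41091935-41092228, as a pseudogene. By contrast, every chain called TRBV2, TRBV3 or TRBV5 was identical to the exon of its own name over 267 to 273 bases. Over all V calls, 19 had chains identical to the germline exon of the same name (2349 chains), 71 chains, among them all 60 called TRBV26, were identical to none, and 383 chains with a joint call of TRBV12-2 and TRBV13-2 were identical to germline TRBV13-2. The chains called TRBV10 are named TRBV4-sequence chains below and are kept apart from the 433 member cells. With them, 596 cells, 20.4% of those with a beta chain, carried a V region of this stretch of the locus.

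TRBV3 was the segment whose share of cells moved most among the members, and it did so in 1 library. TRBV3 was found in 15 of 252 cells (5.95%, interval 3.37 to 9.63) of YTBI_Isotype, 41 of 562 (7.30%, 5.29 to 9.77) of YTBI_aCD49d, 44 of 1004 (4.38%, 3.20 to 5.84) of ATBI_Isotype and 154 of 1102 (14.0%, 12.0 to 16.2) of ATBI_aCD49d. The ATBI_aCD49d interval lay above those of the other 3 libraries, which overlapped one another. TRBV3 ranked second among 22 V calls by cells in ATBI_aCD49d and sixth of 21 in ATBI_Isotype, tied with TRBV31 (44 cells each). The share of cells in ATBI_aCD49d was 9.59 percentage points above ATBI_Isotype (7.12 to 12.1) and 6.68 points above YTBI_aCD49d (3.50 to 9.65). Both comparisons use the same ATBI_aCD49d library. Without the largest TRBV3 clone of each library the differences were 4.23 (2.10 to 6.39) and 1.60 points (-1.28 to 4.26). Without the cells of the shared beta sequences described with the clones they were -0.0522 (-1.93 to 1.83) and -2.96 points (-5.70 to -0.472).

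**Figure D1:**
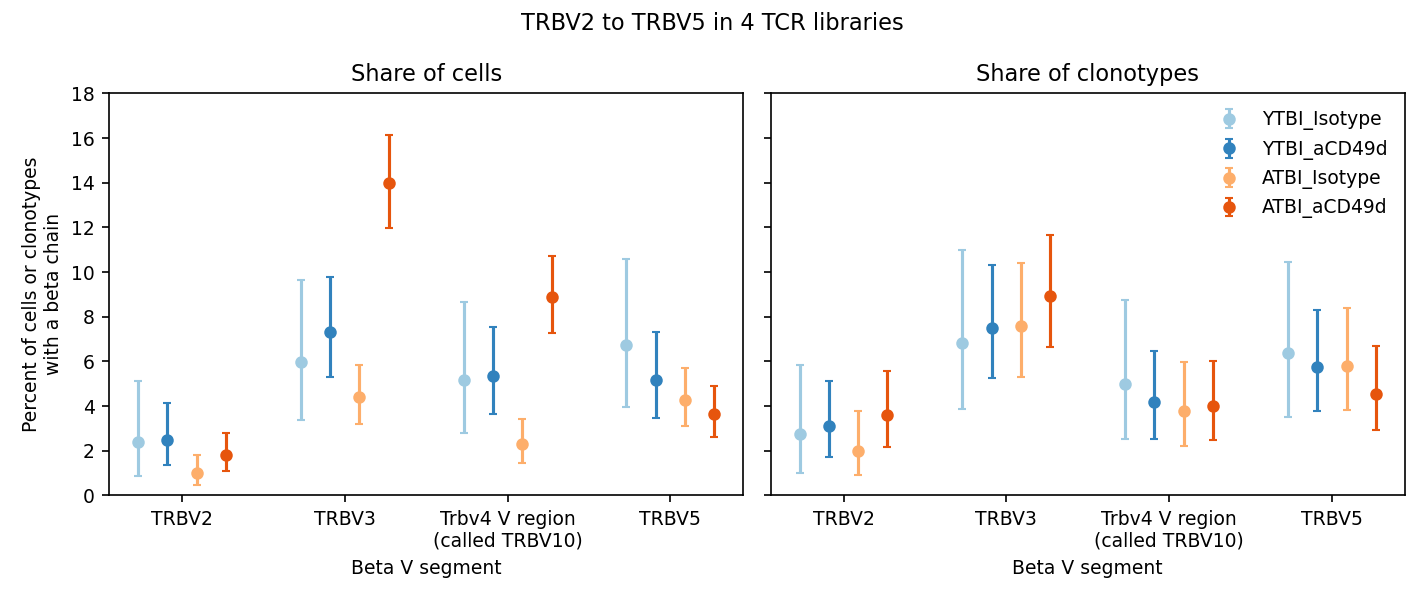
Share of cells (left) and of clonotypes (right) with each beta V segment, in percent of the cells or clonotypes with a beta chain, for the 4 libraries. Points are shares and bars exact 95% intervals for counting error. TRBV3 in ATBI_aCD49d stands at 14.0% of cells, while its clonotype shares lie between 6.82% and 8.92%. The TRBV4-sequence chains are those deposited as TRBV10.

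Counted once per clonotype, TRBV3 was level across the libraries. It was used by 15 of 220 clonotypes (6.82%, 3.87 to 11.0) in YTBI_Isotype, 34 of 453 (7.51%, 5.25 to 10.3) in YTBI_aCD49d, 34 of 449 (7.57%, 5.30 to 10.4) in ATBI_Isotype and 47 of 527 (8.92%, 6.63 to 11.7) in ATBI_aCD49d. All 4 intervals overlapped. The ATBI_aCD49d share was 1.35 points above that of ATBI_Isotype (-2.31 to 4.92). By clonotypes TRBV3 ranked second in ATBI_aCD49d, tied with TRBV1 (47 each), number 3 in ATBI_Isotype, tied with TRBV13-1 (34 each), number 3 in YTBI_aCD49d and number 4 in YTBI_Isotype. With clonotypes defined by the beta chain alone, its ATBI_aCD49d share was 7.84%. The 2 segments with the most similar clonotype shares over the 4 libraries were TRBV16 and TRBV13-1, with summed absolute differences of 5.84 and 6.32 points.

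TRBV5 held between 3.63% and 6.75% of cells, and its share was lower in each aged library than in the young library of the same treatment by less than counting error. It was found in 17 of 252 cells (6.75%, 3.98 to 10.6) in YTBI_Isotype, 29 of 562 (5.16%, 3.48 to 7.33) in YTBI_aCD49d, 43 of 1004 (4.28%, 3.12 to 5.73) in ATBI_Isotype and 40 of 1102 (3.63%, 2.61 to 4.91) in ATBI_aCD49d. By clonotypes its shares were 6.36%, 5.74%, 5.79% and 4.55% in the same order. The intervals of all 4 libraries overlapped for both counts. TRBV16 was most like TRBV5 in clonotype share (summed difference 2.53 points), followed by the TRBV4-sequence chains called TRBV10 (5.48 points).

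TRBV2 was the rarest of the 3 segments that were called. It was found in 6 cells (2.38%, 0.879 to 5.11) of YTBI_Isotype, 14 (2.49%, 1.37 to 4.14) of YTBI_aCD49d, 10 (0.996%, 0.479 to 1.82) of ATBI_Isotype and 20 (1.81%, 1.11 to 2.79) of ATBI_aCD49d. Its share of clonotypes was 2.73%, 3.09%, 2.0% and 3.61%, and again the intervals overlapped. TRBV17 and TRBV20 had the most similar clonotype shares, with summed differences of 2.19 and 2.48 points. Over the pooled clonotypes the order was TRBV3 (7.88%, 6.63 to 9.29), TRBV5 (5.46%, 4.41 to 6.67) and TRBV2 (2.91%, 2.15 to 3.84). The intervals of TRBV3 and TRBV5 overlapped slightly, and that of TRBV2 lay below both.

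The TRBV4-sequence chains also had their highest share of cells in ATBI_aCD49d. They were found in 13 cells (5.16%, 2.78 to 8.66) of YTBI_Isotype, 30 (5.34%, 3.63 to 7.53) of YTBI_aCD49d, 23 (2.29%, 1.46 to 3.42) of ATBI_Isotype and 98 (8.89%, 7.28 to 10.7) of ATBI_aCD49d. The ATBI_aCD49d interval lay above that of ATBI_Isotype and, unlike that of TRBV3, overlapped those of both young libraries. The ATBI_aCD49d share was 6.60 points above ATBI_Isotype (4.63 to 8.62) and 3.55 above YTBI_aCD49d (0.830 to 6.06). A single clonotype held 77 of the 98 cells in ATBI_aCD49d, and both differences include it. ATBI_Isotype minus YTBI_Isotype was -2.87 points (-6.47 to -0.231), where the TRBV3 interval included 0 (-1.57, -5.43 to 1.40). Their share of clonotypes was 5.0%, 4.19%, 3.79% and 3.98%, with overlapping intervals.

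Differences between libraries were called where their interval left out 0, and the same was done for all 22 V calls. Between the aged libraries, treated minus control, 1 of the 3 found members was called by cells (TRBV3) and none by clonotypes, against 54.5% and 9.09% of all V calls. TRBV3 was still called there without its largest clone, but not without the cells of shared beta sequences (-0.0522 points, -1.93 to 1.83). Between the young libraries none of the 3 was called by cells or by clonotypes, against 9.09% and 13.6%. Between the control libraries, aged minus young, none was called by either count, against 36.4% and 13.6%. Between the treated libraries, aged minus young, TRBV3 was called by cells and none by clonotypes, against 36.4% and 9.09%, and without its largest clone TRBV3 was not called by cells. With only 3 found members, these counts are too few to set TRBV2, TRBV3 and TRBV5 apart from all V calls. The TRBV4-sequence chains, not counted among the members here, were called by cells in every comparison but that between the young libraries, and by clonotypes in none.

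The cells of the 3 segments together made up 9.66% (7.90 to 11.7) of ATBI_Isotype and 19.4% (17.1 to 21.9) of ATBI_aCD49d, a difference of 9.76 points (6.71 to 12.8). In the young libraries they made up 15.1% (YTBI_Isotype) and 14.9% (YTBI_aCD49d). ATBI_Isotype minus YTBI_Isotype was -5.42 points (-10.7 to -0.783), an interval that leaves out 0 although that of no single segment does. ATBI_aCD49d was 4.47 points above YTBI_aCD49d (0.517 to 8.24). Of the 214 member cells in ATBI_aCD49d, 101 carried the same TRBV3 beta CDR3, and both differences of this library include them. By clonotypes they made up 15.9%, 16.3%, 15.4% and 17.1% of YTBI_Isotype, YTBI_aCD49d, ATBI_Isotype and ATBI_aCD49d. The shares of cells thus differed more than those of clonotypes, and they depend on the cells per clonotype of the members and of the other segments. In YTBI_Isotype and ATBI_Isotype these were 1 and 1.29 for TRBV3, 1.21 and 1.65 for TRBV5 and 1 and 1.11 for TRBV2. The other segments had 1.15 and 2.37.

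Most TRBV3 clonotypes held 1 TRBV3 cell in every library, and 3 large ones stood out in ATBI_aCD49d, where 40 of 47 held 1. A clonotype was called expanded when at least 2 of its cells carried the segment. None of 15 TRBV3 cells in YTBI_Isotype was in an expanded clonotype (3 counts, the limit of a count of 0, are 20%), while 11 of 41 (26.8%, 14.2 to 42.9) were in YTBI_aCD49d, 16 of 44 (36.4%, 22.4 to 52.2) in ATBI_Isotype and 114 of 154 (74.0%, 66.4 to 80.8) in ATBI_aCD49d. The largest TRBV3 clonotype held 1, 4, 4 and 69 cells in the same order. Fewer cells make expansion harder to see: at the 252 cells of the smallest library, the expected shares were 17.6% in YTBI_aCD49d, 14.6% in ATBI_Isotype and 69.1% in ATBI_aCD49d. Other V segments reached 65.8% in ATBI_Isotype and 57.5% in ATBI_aCD49d, so that TRBV3 lay below them in the first and above them in the second by cells. By clonotypes TRBV3 was close to them in both, with 6 of 34 expanded (17.6%, 6.76 to 34.5) against 19% in ATBI_Isotype and 7 of 47 (14.9%, 6.20 to 28.3) against 14.4% in ATBI_aCD49d.

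**Figure D2:**
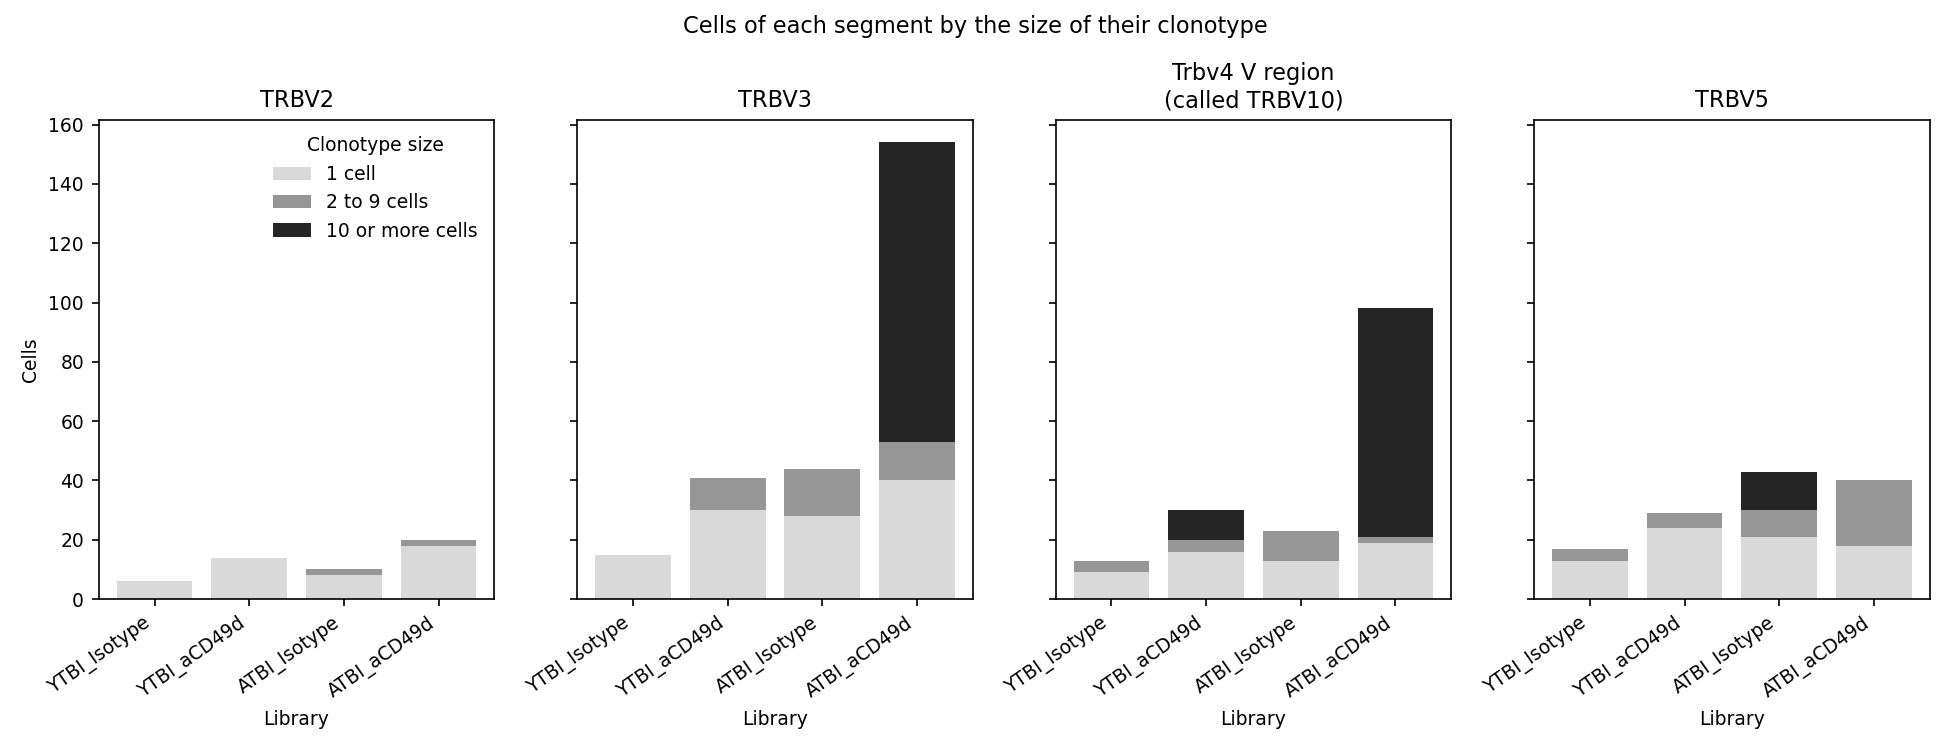
Number of cells with each segment in each library, split by the number of cells in their clonotype (1, 2 to 9, and 10 or more, from light to dark). The bars start at 0. The dark block of TRBV3 in ATBI_aCD49d holds the 101 cells of 3 clonotypes, that of TRBV5 in ATBI_Isotype 13 cells, and those of the TRBV4-sequence chains, called TRBV10, 77 cells in ATBI_aCD49d and 10 in YTBI_aCD49d.

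The 3 TRBV3 clonotypes with at least 10 cells were all in ATBI_aCD49d, and they carried one beta CDR3. Clonotype 3 held 69 cells (6.14% of the library's 1123 cells, 4.81 to 7.71), clonotype 6 held 20 and clonotype 11 held 12. All 101 cells had the same 48-base CDR3 with TRBJ2-7 and TRBC2, which made up 65.6% of the library's 154 TRBV3 cells and 8.99% (7.39 to 10.8) of all its cells. The 69 cells and the 12 cells also had the same TRAV16N-TRAJ13 alpha CDR3. The 20 cells of clonotype 6 had no alpha chain in the files. Their beta chains were no shallower, with a median of 12 UMIs (unique molecular identifiers, which count RNA molecules) against 10 in clonotype 3 and 9.5 in clonotype 11. Clonotypes 3 and 11 are thus listed apart although every chain deposited for them matches, so the deposited clonotypes do not always follow the definition given above, and counts of clonotypes include such splits. Whether clonotype 6 belongs with them was not tested.

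A further pair of TRBV3 sequences was shared by several clonotypes of ATBI_aCD49d, and TRBV5 had one such sequence in ATBI_Isotype. Capitals in the following CDR3 sequences mark the bases that match neither the germline V end nor the germline J start.
TRBV3-TRBJ2-7, clonotypes 3, 6 and 11: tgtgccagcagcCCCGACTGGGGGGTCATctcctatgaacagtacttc
TRBV3-TRBJ2-4, clonotypes 26, 65 and 427: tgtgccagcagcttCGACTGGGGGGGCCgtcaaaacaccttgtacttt
TRBV3-TRBJ2-5, clonotypes 151 and 152: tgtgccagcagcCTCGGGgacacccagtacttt
TRBV5-TRBJ2-4, clonotypes 178 and 179: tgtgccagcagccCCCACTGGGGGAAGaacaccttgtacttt
Clonotypes 26, 65 and 427 held 5, 2 and 1 cells, of which the 2 cells of clonotype 65 had no alpha chain and the others the same TRAV16N-TRAJ31 chain. Clonotype 427 also held a second beta chain, with the joint V call. Clonotypes 151 and 152 held 1 cell each with the same TRAV3D-3-TRAJ15 chain, and the cell of clonotype 152 had a second alpha and a TRBV20 beta chain besides. The TRBV5 clonotypes 178 and 179 held 1 cell each, with TRAV3-1-TRAJ30 chains of the same length that were not identical. The 3 shared TRBV3 sequences thus covered 101, 8 and 2 cells, and the shared TRBV5 sequence 2.

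Beta CDR3 sequences found in more than 1 clonotype of a library were uncommon. They made up 3 of 125 distinct TRBV3 sequences (2.40%), 1 of 89 of TRBV5 (1.12%), none of 48 of TRBV2 and 7 of 1416 of the other V calls (0.494%). Single other calls ran from 0 (as in TRBV1, 0 of 106) to 2.56% (TRBV17, 1 of 39) and 4.0% (TRBV15, 2 of 50), a range that holds all 3 members. Without the cells of the shared member sequences, TRBV3 made up 4.34% of the ATBI_aCD49d cells, and its difference from ATBI_Isotype was -0.0522 points (-1.93 to 1.83), a setting chosen after seeing the data. Of the cells left out, 101 carried the TRBV3-TRBJ2-7 sequence. One of the TRBV4-sequence CDR3 was likewise shared, by clonotypes 107 and 128 of YTBI_aCD49d, and these carried unlike alpha chains, TRAV9-2-TRAJ30 and TRAV14D-1-TRAJ31.

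TRBV5 clones were of moderate size in both aged libraries. In ATBI_Isotype 22 of 43 cells (51.2%, 35.5 to 66.7) were in expanded clonotypes and in ATBI_aCD49d 22 of 40 (55.0%, 38.5 to 70.7), against 4 of 17 (23.5%, 6.81 to 49.9) in YTBI_Isotype and 5 of 29 (17.2%, 5.85 to 35.8) in YTBI_aCD49d. At the 252 cells of the smallest library these shares were expected at 35.8%, 29.7%, 23.5% and 10.3%, so that the gap between the ages narrowed at equal cell number. The largest TRBV5 clones are shown with the same use of capitals.
TRBV5-TRBJ2-1, clonotype 8 of ATBI_Isotype, 13 cells: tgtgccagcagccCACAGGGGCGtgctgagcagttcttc
TRBV5-TRBJ2-5, clonotype 19 of ATBI_aCD49d, 6 cells: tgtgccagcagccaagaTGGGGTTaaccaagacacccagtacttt
TRBV5-TRBJ2-5, clonotype 24 of ATBI_aCD49d, 5 cells: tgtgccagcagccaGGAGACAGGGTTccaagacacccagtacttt
Clonotype 8 was paired with TRAV9N-4-TRAJ21 and made up 1.27% (0.678 to 2.16) of its library, and 8 of its 13 cells had an alpha chain. Clonotype 19 was paired with TRAV7-4-TRAJ33 and clonotype 24 with TRAV2-TRAJ21, in all 6 and all 5 cells.

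Few TRBV2 clonotypes held more than 1 cell with the TRBV2 chain, and each library had only 6 to 20 TRBV2 cells. In 46 of its 48 clonotypes a single cell carried the TRBV2 chain (clonotype 62 of ATBI_Isotype and clonotype 35 of YTBI_aCD49d had a further cell without it), and the only clonotypes with 2 TRBV2 cells were clonotype 60 of ATBI_Isotype, with TRBJ2-2 and TRAV10N-TRAJ7, and clonotype 52 of ATBI_aCD49d, with TRBJ2-7 and TRAV3D-3-TRAJ12. The expanded share was thus 2 of 10 cells (20.0%, 2.52 to 55.6) and 2 of 20 (10.0%, 1.23 to 31.7). Clonotypes 62 and 35 are not counted as expanded here, although each held 2 cells in all. In the young libraries 0 of 6 and 0 of 14 TRBV2 cells were expanded, for which 3 counts are 50% and 21.4%. The upper limits in the aged libraries lay below the shares of cells of the other V segments, 65.8% and 57.5%. Counted by clonotypes there was no such gap, with 1 of 9 (11.1%, 0.281 to 48.2) and 1 of 19 (5.26%, 0.133 to 26.0) expanded for TRBV2 against 73 of 385 and 64 of 444 for the others.

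The TRBV4-sequence chains held a single dominant clone in ATBI_aCD49d. Clonotype 2 of that library counted 77 cells with this chain (6.86%, 5.45 to 8.50), paired with TRAV9-4-TRAJ34, and clonotype 2 of YTBI_aCD49d counted 10, paired with TRAV10N-TRAJ13. Their CDR3 and that of the largest such clone of ATBI_Isotype, clonotype 25, are given with the same capitals.
TRBV4 sequence, TRBJ2-7, ATBI_aCD49d, 77 cells: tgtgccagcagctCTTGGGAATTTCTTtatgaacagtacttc
TRBV4 sequence, TRBJ1-5, YTBI_aCD49d, 10 cells: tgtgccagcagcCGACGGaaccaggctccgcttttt
TRBV4 sequence, TRBJ2-7, ATBI_Isotype, 3 cells: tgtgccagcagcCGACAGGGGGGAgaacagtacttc
Of the 98 cells in ATBI_aCD49d, 79 (80.6%, 71.4 to 87.9) were in expanded clonotypes, and of the 23 in ATBI_Isotype 10 (43.5%, 23.2 to 65.5). In ATBI_aCD49d a single beta CDR3 sequence was thus found in 101 of 154 TRBV3 cells, and another in 77 of 98 TRBV4-sequence cells.

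TRBV3 was joined to TRBJ1 genes less often in ATBI_aCD49d than in ATBI_Isotype. Counting each beta chain once per clonotype, TRBJ1 genes were joined in 8 of 15 TRBV3 chains (53.3%, 26.6 to 78.7) in YTBI_Isotype, 18 of 34 (52.9%, 35.1 to 70.2) in YTBI_aCD49d, 21 of 34 (61.8%, 43.6 to 77.8) in ATBI_Isotype and 11 of 47 (23.4%, 12.3 to 38.0) in ATBI_aCD49d. The ATBI_aCD49d interval lay below that of ATBI_Isotype and overlapped those of both young libraries, and the intervals of the other 3 libraries overlapped one another. Among the other V segments the TRBJ1 share was 28.2%, 30.4%, 41.1% and 40.1% in the same order, which is higher in the aged libraries. TRBV2 went the other way, with 2 of 9 chains (22.2%, 2.81 to 60.0) in ATBI_Isotype and 10 of 19 (52.6%, 28.9 to 75.6) in ATBI_aCD49d. TRBV5 had 9 of 26 (34.6%, 17.2 to 55.7) and 5 of 24 (20.8%, 7.13 to 42.2). Within TRBV2 and within TRBV5 these intervals overlapped. When each CDR3 sequence of the library was counted once, 11 of 42 TRBV3 chains (26.2%) used TRBJ1 in ATBI_aCD49d. This was slightly above 23.4% and still below the TRBV3 shares of the other libraries. Counted by cells, the ATBI_aCD49d share was lower still, as given with the processing.

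**Figure D3:**
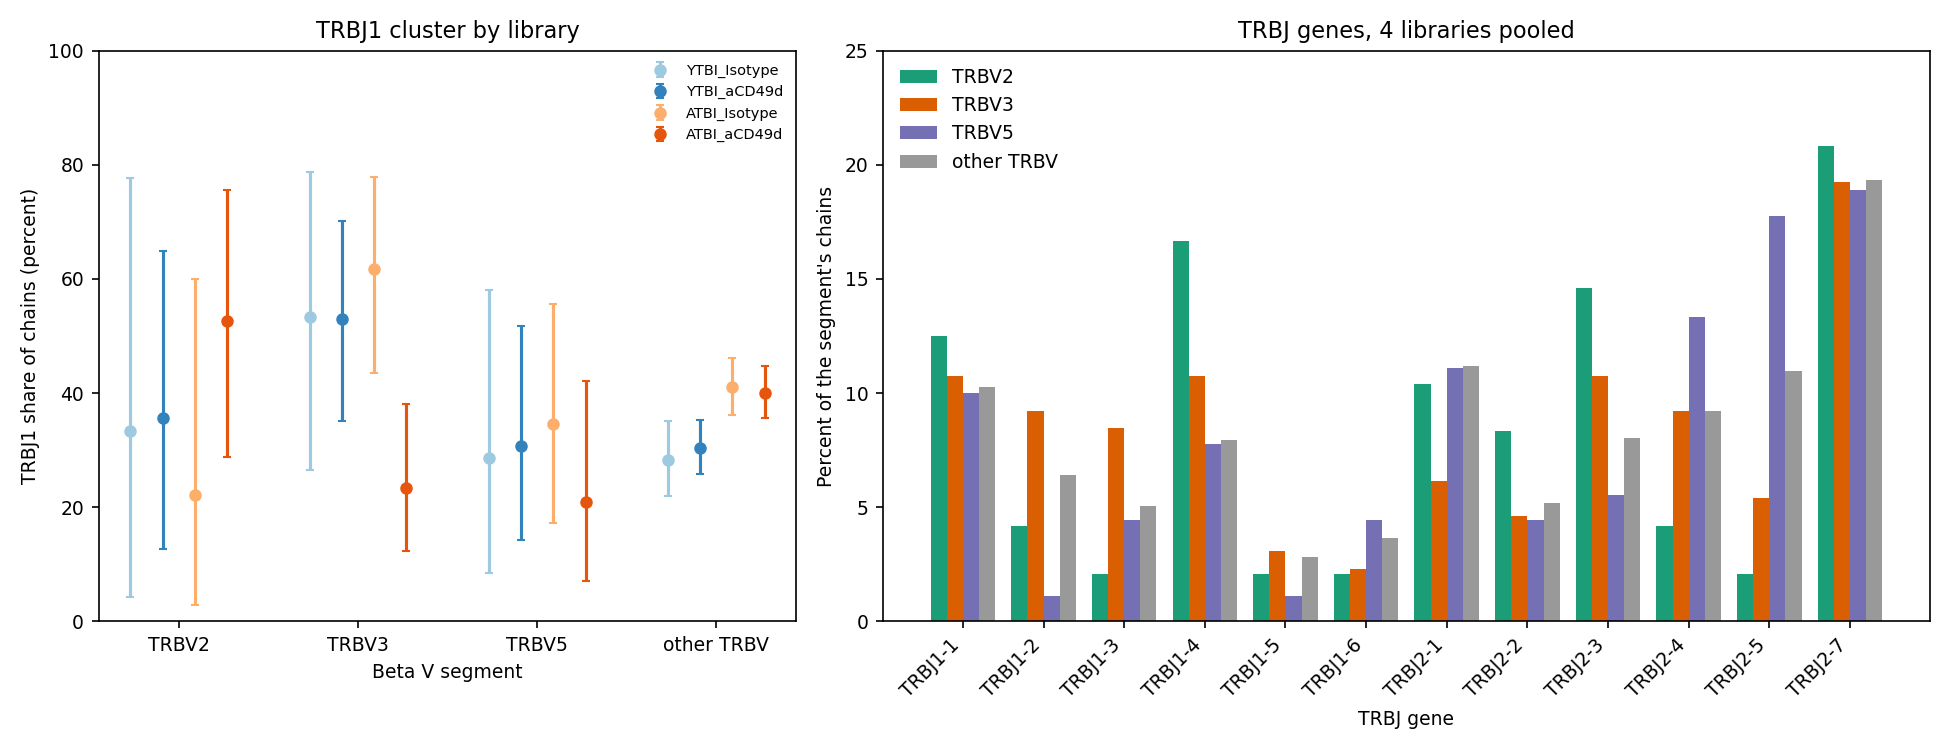
Left, share of chains joined to a TRBJ1 gene, in percent with exact 95% intervals, for each segment and library. Right, share of each TRBJ gene among the chains of a segment over the 4 pooled libraries, in percent, with bars from 0. TRBV3 stands at 61.8% TRBJ1 in ATBI_Isotype and 23.4% in ATBI_aCD49d, and TRBJ2-7 is the most used gene of all 3 segments.

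TRBJ2-7 was the leading J gene of every member, as it was of the other V segments (19.3%). For TRBV3 it was used in 25 of 130 chains (19.2%), followed by TRBJ1-1, TRBJ1-4 and TRBJ2-3 with 14 each (10.8%). For TRBV5 the 3 leading genes were TRBJ2-7 (17 of 90, 18.9%), TRBJ2-5 (16, 17.8%) and TRBJ2-4 (12, 13.3%). For TRBV2 they were TRBJ2-7 (10 of 48, 20.8%), TRBJ1-4 (8, 16.7%) and TRBJ2-3 (7, 14.6%). TRBV5 used TRBJ2-5 above the 11.0% (9.39 to 12.7) of the other segments, with an interval of 10.5% to 27.3% that overlaps theirs. TRBJ2-4 was joined in 0 of 15, 3 of 34, 0 of 34 and 9 of 47 TRBV3 chains in YTBI_Isotype, YTBI_aCD49d, ATBI_Isotype and ATBI_aCD49d, and the last 9 include the clonotypes 26, 65 and 427 with one shared sequence. Among the other segments it was joined in 11.8%, 10.7%, 6.12% and 9.47%.

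Over the pooled libraries TRBJ1 genes were joined in 44.6% of TRBV3 chains (35.9 to 53.6), 39.6% of TRBV2 (25.8 to 54.7) and 28.9% of TRBV5 (19.8 to 39.4), against 36.1% (33.6 to 38.7) of the other segments. The TRBV4-sequence chains had 29.4% (19 to 41.7). These intervals overlapped. The C gene call gave TRBC1 to 58 of 130 TRBV3 chains and TRBC2 to 72, the same counts as its TRBJ1 and TRBJ2 chains. In TRBV2, 5 of 48 chains had no C call, against none of 130 for TRBV3 and none of 90 for TRBV5.

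D segments are short and mostly trimmed, and no D call was made for 70.8% of TRBV3, 77.1% of TRBV2 and 77.8% of TRBV5 chains. The letters GACTGG, which are in germline TRBD2 and not in TRBD1, were searched on the coding strand of the CDR3. They occurred in 19 of 72 TRBV3 chains with TRBJ2 (26.4%, 16.7 to 38.1) and in 2 of 58 with TRBJ1 (3.45%), in 9 of 64 (14.1%) and 0 of 26 for TRBV5, and in 6 of 29 (20.7%) and 0 of 19 for TRBV2. The other V segments had them in 21.8% of TRBJ2 and 0.389% of TRBJ1 chains. Both the shared TRBV3-TRBJ2-7 and TRBV3-TRBJ2-4 sequences printed above hold these letters. Each is counted here in 3 clonotypes, so the 19 chains include repeats of the same sequence, which raise the TRBV3 share.

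Over the pooled libraries the members had slightly longer beta CDR3 than the other segments. The mean length, with the conserved cysteine and the last residue before framework 4, was 14.6 ± 1.14 residues (SD, n = 48 chains) for TRBV2, 14.2 ± 1.41 (n = 130) for TRBV3 and 14.5 ± 1.31 (n = 90) for TRBV5, against 13.9 ± 1.41 (n = 1423) for the others, which here, as in every count of the other segments but that of the V and J ends, include the chains called TRBV10. The differences were not tested. The most frequent length was 15 residues for all 3 members and 14 for the others. By library the TRBV3 means lay between 14.1 and 14.3, the TRBV2 means between 14.5 and 15, and the TRBV5 means between 13.9 and 14.7, while the others had 13.9 to 14.0. In YTBI_Isotype the TRBV5 mean (13.86) was below that of the others (13.98). The range over chains was 9 to 18 residues for TRBV3, 11 to 17 for TRBV5 and 12 to 17 for TRBV2. The TRBV4-sequence chains were the shortest of the group, at 13.5 ± 1.45 residues (n = 68).

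The members differed among themselves in how much of the V end was kept. Each CDR3 was compared with the germline V end from its start and with the germline J start from its end, and the bases in between were counted. Of the 17 germline V bases, 1.31 ± 1.64 were not matched in TRBV2 chains and 1.49 ± 1.94 in TRBV5 chains, but 3.15 ± 1.78 in TRBV3 and 4.63 ± 1.12 in TRBV4-sequence chains. The other segments that could be aligned had 2.62 ± 2.17 (n = 1093 chains). A full V end was left in 23 of 48 TRBV2 chains (47.9%, 33.3 to 62.8), 44 of 90 of TRBV5 (48.9%, 38.2 to 59.7) and 8 of 130 of TRBV3 (6.15%, 2.69 to 11.8). Among the other segments it was left in 242 of 1093 (22.1%, 19.7 to 24.7), below TRBV2 and TRBV5 and above TRBV3.

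The share of full V ends was lower in TRBV3 than in TRBV2 and TRBV5 in every library, whereas the mean number of unmatched bases did not order TRBV2 and TRBV5, or TRBV3 and the other segments, the same way in each. The share of full V ends in TRBV3 was 13.3%, 2.94%, 2.94% and 8.51% in YTBI_Isotype, YTBI_aCD49d, ATBI_Isotype and ATBI_aCD49d. In TRBV5 it was 42.9%, 50.0%, 50.0% and 50.0%, and in TRBV2 66.7%, 50.0%, 55.6% and 36.8%. The highest TRBV3 library lay below the lowest of the others, with no test. No TRBV4-sequence chain of 68 kept the full end, and the fewest bases lost were 3, which removes the end of the TAA codon. A trimmed base that is added back by chance counts as kept, so these are matches and not a direct record of trimming.

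**Figure D4:**
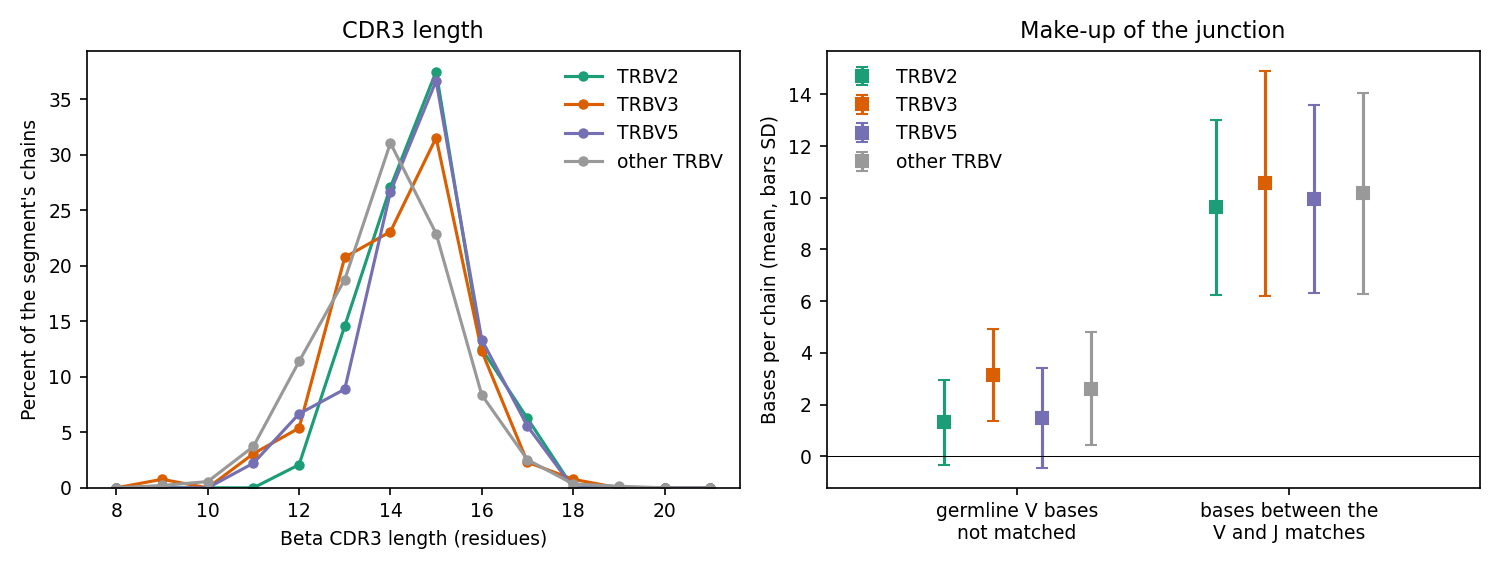
Left, distribution of beta CDR3 length in residues, in percent of each segment's chains over the 4 pooled libraries. Right, mean number of germline V bases not matched and of bases between the V and J matches, per chain, with bars of 1 SD. TRBV2 and TRBV5 lose 1.31 and 1.49 V bases on average and TRBV3 3.15, while the bases in between are 9.63 to 10.6 for the 3 segments.

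The bases between the V and J matches hold the D segment and the added bases. They averaged 9.63 ± 3.40 in TRBV2, 10.6 ± 4.35 in TRBV3 and 9.96 ± 3.62 in TRBV5, against 10.2 ± 3.90 in the others. Chains with TRBJ2 had more of them than chains with TRBJ1 in each group, at 11.2 against 9.83 for TRBV3, 10.6 against 8.46 for TRBV5 and 10.0 against 9 for TRBV2. The other segments had 10.9 against 8.91. These means were not tested. Within TRBV3 the libraries ranged from 8.50 ± 3.96 in ATBI_Isotype (n = 34) to 11.7 ± 3.95 in ATBI_aCD49d (n = 47).

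Over the pooled libraries an alpha chain was recovered less often for TRBV3 than for TRBV5, while the intervals of TRBV3 and TRBV2 overlapped. It was found in 199 of 254 TRBV3 cells (78.3%, 72.8 to 83.3), 117 of 129 TRBV5 cells (90.7%, 84.3 to 95.1) and 46 of 50 TRBV2 cells (92.0%, 80.8 to 97.8), against 75.3% of cells with the other segments. By library TRBV3 had 86.7%, 73.2%, 70.5% and 81.2% and TRBV5 88.2%, 89.7%, 88.4% and 95%, so that TRBV3 was below TRBV5 in each. In ATBI_aCD49d 125 of 154 TRBV3 cells had an alpha chain, and those without include all 20 cells of clonotype 6 and all 2 of clonotype 65. The pooled and the ATBI_aCD49d share of TRBV3 thus rest in large part on clonotype 6, whose cells are not independent. TRBV2, with 6 to 20 cells a library, had 83.3%, 85.7%, 100% and 95%, below TRBV3 in YTBI_Isotype. The median beta chain had 13, 8, 8 and 12 UMIs in TRBV3, 9, 8, 6 and 9 in TRBV5, and 4.5, 4, 5 and 4 in TRBV2, in YTBI_Isotype, YTBI_aCD49d, ATBI_Isotype and ATBI_aCD49d. TRBV2 was the lowest in each library, and TRBV3 and TRBV5 were level in YTBI_aCD49d. A single UMI stood behind 5 of 50 TRBV2 chains, 2 of 254 TRBV3 chains and 4 of 129 TRBV5 chains.

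The alpha partners were broad. TRBV3 clonotypes with an alpha chain (101) used 52 TRAV genes, those of TRBV5 (85) used 53 and those of TRBV2 (44) used 37. TRAV3D-3 led in TRBV3 (7 clonotypes, 6.93%, 2.83 to 13.8) and in TRBV5 (5, 5.88%, 1.94 to 13.2), against 3.22% of clonotypes with the other segments. TRAV14N-3 and TRAV16N followed in TRBV3 with 5 each (4.95%). In TRBV5, TRAV12-2, TRAV14D-1, TRAV6N-7 and TRAV7-4 followed with 4 each (4.71%). In TRBV2, TRAV6-6 (4 clonotypes, 9.09%) and TRAV13-1 (3, 6.82%) led. The intervals of all these TRAV shares overlapped those of the same genes among the other segments. Of the leading TRAJ genes, TRAJ37 in TRBV3 (9.90%, 4.85 to 17.5, against 2.50%, 1.67 to 3.60) did not overlap. Nor did TRAJ40, which led TRBV5 with TRAJ21 (8.24%, 3.38 to 16.2, against 2.23%, 1.45 to 3.28). TRAJ21 in TRBV5 and TRAJ23, the leader in TRBV2, overlapped. These TRAJ genes were picked out after seeing the values and were not tested.

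In ATBI_aCD49d TRAV16N was found in 4 TRBV3 clonotypes with 87 cells, namely clonotypes 3, 11, 26 and 427, which carry 2 of the shared beta sequences. In the same library it was also the partner of the single TRBV2 cell of clonotype 332. TRAV11, whose join to TRAJ18 forms the alpha chain of invariant natural killer T cells, led among the other segments (10.1% of clonotypes) and was not among the leading partners of any member. TRAV11-TRAJ18 was carried by 1 single-cell TRBV2 clonotype, clonotype 115 of ATBI_aCD49d, and by 1 TRBV3 clonotype, clonotype 66 of YTBI_Isotype, and in both the cell held a TRBV13-1 beta chain as well. Cell Ranger's evidence column for such cells, which can rest on the V gene alone, was filled for 1 of 48 TRBV2, 2 of 130 TRBV3 and 0 of 90 TRBV5 clonotypes, against 311 of 1397 with the other segments.

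No member CDR3 nucleotide sequence was found in 2 libraries, out of 48 for TRBV2, 125 for TRBV3 and 89 for TRBV5. Among the other segments 1 of 1415 (0.0707%) was, so such sharing was rare for all. As proteins, 1 of 88 TRBV5 CDR3 (1.14%), none of TRBV2 or TRBV3 and 5 of 1403 of the other segments (0.356%) were found in 2 or more libraries. No cell barcode of a member cell occurred in 2 libraries. TRBV5 had one CDR3 protein encoded by 2 nucleotide sequences, those of the 6 cells of ATBI_aCD49d clonotype 19 and of 1 cell of YTBI_aCD49d. Their nucleotides differ by 1 base, T18C, counted from 1 at the first base of the CDR3 with the ATBI_aCD49d base first. A second pair of TRBV5 chains, from ATBI_Isotype and YTBI_aCD49d, differ by T18G and encode unlike proteins. Both pairs are TRBJ2-5 chains of 45 bases that kept all 17 germline V bases, and capitals again mark the bases outside the germline ends.
ATBI_aCD49d, 6 cells: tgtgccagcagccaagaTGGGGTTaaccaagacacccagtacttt
YTBI_aCD49d, 1 cell: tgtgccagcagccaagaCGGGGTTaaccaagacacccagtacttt
ATBI_Isotype, 1 cell: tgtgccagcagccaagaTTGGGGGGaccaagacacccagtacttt
YTBI_aCD49d, 1 cell: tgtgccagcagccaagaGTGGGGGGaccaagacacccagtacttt
All 4 sequences have only 7 or 8 bases between their germline ends, below the TRBV5 mean of 9.96.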

How the data were processed

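The authors loaded brain immune cells on the 10x Genomics 5' v2 chip with immune profiling. They assembled the TCR reads against mm10, and the submitters' processing notes name Cell Ranger 7.2.0. The notes list mm9 as well, with no role given. The deposited contig tables hold, as counts, the reads and UMIs behind each productive chain, beside its segment calls and sequence. The deposited clonotype tables hold the count of cells of each clonotype and its fraction of the library. The 4 libraries held 262 to 1123 cells, 4473 to 18415 TCR UMIs and 13216284 to 54235712 reads, and 1 cell with a beta chain is 0.0907% to 0.397% of a library. The authors later kept only cells that were T cells by transcriptome, which was not repeated, and the transcriptome libraries were not analysed here.

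Shares were taken over cells or clonotypes with a beta chain (66 of 2986 cells had none), and a cell with 2 beta chains counted for both. No doublet caller was run, and the 47 cells with over 1 beta chain, 16 of them with a member, were kept. Leaving out cells with over 1 beta or over 2 alpha chains was an alternative. Limits are Clopper-Pearson at 95%, and differences have Newcombe intervals made from them. With 1 library per group no test was run. The V and J ends were read from RefSeq on GRCm38 (p6), for 1361 of 1691 beta chains and all 268 of the members. The remaining chains were called TRBV10, TRBV26 or jointly. V regions were compared with 35 germline V exons. Interval and alignment code was tested on simulated data.

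Named were all 4 members, per segment the 3 leading TRBJ and TRAV genes (ties included where few), the 3 largest clonotypes and any with 10 or more cells (the 46 TRBV2 clonotypes tied at 1 TRBV2 cell are not listed), every beta CDR3 in 2 or more member clonotypes, and the 2 V calls most like each member by summed clonotype-share differences. TRBV2 clonotypes 35, 62, 115 and 332, TRBV3 clonotype 66, the TRBV4-sequence clones and the count of TRBJ2-4 were chosen after their values were seen. So were the TRAJ genes and the single other V calls given for shared sequences. The members and lists were chosen with earlier results of these data known. Alternatives were other sets of cells, clonotype definitions, denominators and units. Counting by germline V sequence and leaving out shared sequences were chosen after seeing the data. Python 3.11.15 was used with pandas 2.3.3 and numpy 2.4.6 for the tables, scipy 1.17.1 for the intervals and matplotlib 3.10.9 for plots.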

Additional observations from a re-analysis of the deposited data

Results flagged for a closer look

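The V region of TRBV4 appeared in sequence columns that the V call does not reflect. In 164 cells the beta chain was identical to the TRBV4 exon over 270 bases while its deposited call was TRBV10, and no chain was called TRBV4. Which reference name led to the call was not tested.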

How the results depend on the processing

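Of 539 values under an alternative, 518 counted as the same. For shares this meant within the counting limits of the reported value, and for mean CDR3 lengths within the SD. Counts of shared sequences had to stay within a set factor. A difference had to stay called or not called, and a called difference had to keep its sign, while an uncalled difference could change sign. Counting chains identical to germline TRBV4 as TRBV4, chosen after seeing the data, gave 5.16%, 5.34%, 2.29% and 8.89% of cells and 5.0%, 4.19%, 3.79% and 3.98% of clonotypes in YTBI_Isotype, YTBI_aCD49d, ATBI_Isotype and ATBI_aCD49d in place of 0. Without the largest clone of the segment, TRBV3 was 8.23% of the ATBI_aCD49d cells and TRBV5 3.03% of the ATBI_Isotype cells, and the TRBV3 difference of ATBI_aCD49d was 4.23 points from ATBI_Isotype (2.10 to 6.39) and 1.60 from YTBI_aCD49d (-1.28 to 4.26). Without the cells of shared beta CDR3, also chosen after seeing the data, TRBV3 was 4.34% of the ATBI_aCD49d cells, and its differences from ATBI_Isotype and YTBI_aCD49d turned to -0.0522 and -2.96 points (-5.70 to -0.472 for the latter). By construction, both settings remove cells that raise the ATBI_aCD49d share. Without the largest clone alone, the interval of the difference from ATBI_Isotype still left out 0. Among expanded cells, TRBV2 fell to 0 in ATBI_Isotype with clonotypes defined by V, J and C genes, and to 0 in both aged libraries at a minimum of 3 cells. Thinned to 252 cells, TRBV3 in ATBI_Isotype was 14.6% and TRBV5 in ATBI_aCD49d 29.7%. Counted by cells, the TRBJ1 share of TRBV3 was 28.0% over all libraries and 7.14% in ATBI_aCD49d. Treating joint V calls as members changed nothing, since none named a member. No paired analysis was possible because no group holds more than 1 library. The 6 to 20 TRBV2 cells of a library limit what can be said of it, and mice within a pool cannot be told apart.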
